A study of Mus musculus with 12 samples.

Results

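The cytosolic heat shock chaperones are described here through 9 genes, Hsf1, Hspa1a, Hspa1b, Hspa8, Hsph1, Dnajb1, Bag3, Hsp90aa1 and Hsp90ab1, chosen by name. All 9 had a row among the 14264 genes of each deposited table. RNA came from mouse bone marrow-derived macrophages, and the 12 libraries form 4 groups of 3: a hairpin against MOF (shMOF) or a control hairpin (shCTRL), each with LPS at 100 ng/ml for 3 h, and shMOF or shCTRL left unstimulated. MOF is the lysine acetyltransferase that Kat8 encodes, and LPS is a bacterial product sensed through TLR4. Every group carries a hairpin, the labels name 1 hairpin against MOF and no rescue, and the sources used here give no strain, age or number of animals. Each table gives 1 comparison of shMOF with shCTRL within an LPS state, with no values per library, so the fold change and its standard error (SE) stand in for sample values. LPS was not compared with no LPS, as neither table holds that comparison. Whether libraries of a group came from separate animals is not in the labels, so the p-values measure only the spread between these samples, which may be technical.

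Chaperones bind unfolded proteins and help them fold, refold or be degraded. HSF1, held inactive in unstressed cells, binds heat shock elements when proteins misfold and switches on HSP70 and HSP90 genes. HSP70 works in a cycle in which J-domain proteins deliver the client and start ATP hydrolysis, and exchange factors such as HSP110 and BAG proteins release it. HSP90 takes over clients such as kinases and steroid receptors, with the help of co-chaperones. In macrophages HSP90 clients include kinases of the TLR4 pathway.

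Kat8 was the check of the labels. Its log2 fold change in the authors' deposited table was -2.31 (SE 0.13, adjusted p = 4.86e-67) at LPS 3 h and -2.25 (SE 0.10, adjusted p = 2.08e-101) in unstimulated cells. All 10 macrophage markers were measured, with a summed mean normalized count of 543943. Of these 7 were called higher and 1 lower at LPS 3 h, and 9 higher and 0 lower in unstimulated cells. The 5 fibroblast markers summed to 1321, and 3 of them, the collagen genes Col1a1, Col1a2 and Col3a1, were called higher in shMOF cells in both states. Of 7 progenitor markers 4 were measured, 2 of them called lower at LPS 3 h and 3 in unstimulated cells. Of 6 neutrophil markers 2 were measured, neither called, and the 6 lymphocyte markers were not analysed here. Proliferation markers were called lower in 8 of 10 cases and higher in 1 at LPS 3 h, and lower in 10 of 10 in unstimulated cells. The part of these shifts in the chaperone results was not tested. In such bulk samples fewer cells of a type and less RNA per cell cannot be told apart.

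After 3 h of LPS the inducible HSP70 genes Hspa1b and Hspa1a rose in shMOF cells, the HSP70 partners Dnajb1 and Bag3 rose by less, and Hsph1 and, slightly, Hspa8 fell. In unstimulated cells Hsp90aa1 fell, and Hspa1b and Hsp90ab1 rose. Hsf1 itself was not called in either state. At LPS 3 h 4 of the 9 genes were called higher and 2 lower at an adjusted p under 0.05, where 48.0% of all 13987 genes tested were called, 28.1% higher and 20.0% lower. In unstimulated cells 2 were called higher and 1 lower, where 39.1% of 14264 genes were called, 21.3% higher and 17.8% lower. The median log2 fold change of the 9 genes was 0.031 at LPS 3 h, beside 0.027 over all genes tested, and -0.026 in unstimulated cells, beside 0.031. Of the 9 genes 1, Hspa1b, was called in both states, 5 were called at LPS 3 h and not in unstimulated cells, 2 the other way round, and Hsf1 in neither. Counting changes up to 0.25 as null left Hspa1a and Hspa1b called at LPS 3 h and Hsp90aa1 in unstimulated cells. Over all genes tested this null called 17.5% at LPS 3 h and 10.5% in unstimulated cells. Scaled to the spread of the statistic over all genes, an empirical null, 0 of the 9 were called in either state, with 1 in each at an unadjusted p under 0.05 when the DESeq2 statistic is scaled so. The empirical null called only 3.47% of all genes tested at LPS 3 h and 3.98% in unstimulated cells. Differing calls do not show that the effects differ between states, and that difference has its own test further on.

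**Figure D1:**
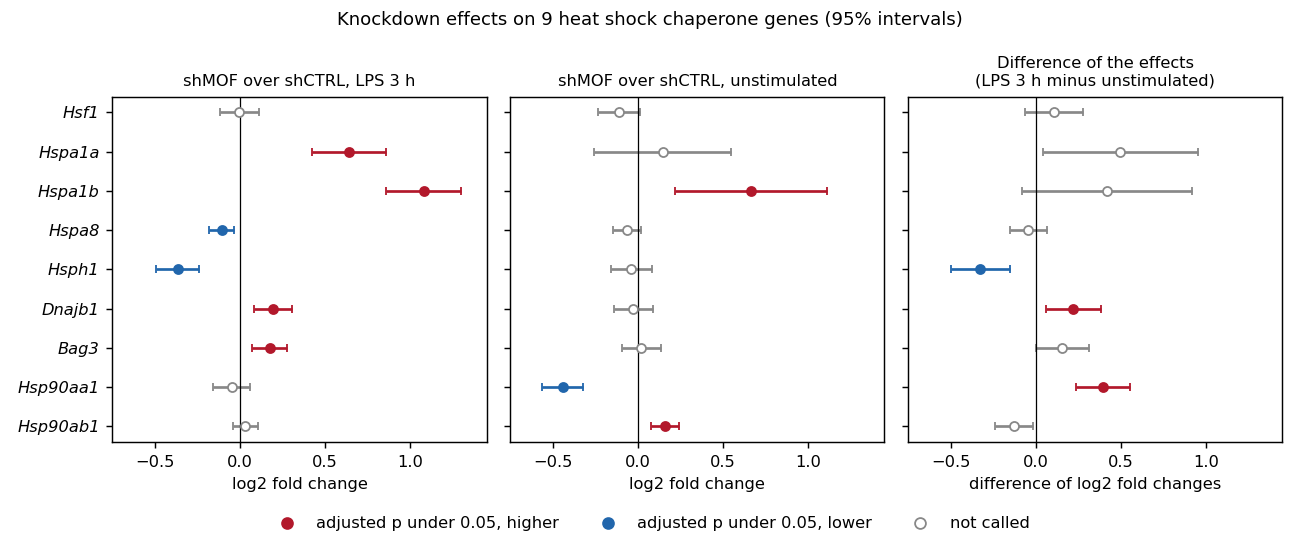
Log2 fold change of shMOF over shCTRL for the 9 genes at LPS 3 h (left) and in unstimulated cells (middle), and the difference of these effects (right), with 95% intervals; filled points passed an adjusted p of 0.05. Hspa1b had the highest fold change in both states, 1.08 and 0.66, and Hsp90aa1 stood at -0.44 in unstimulated cells only.

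Mean levels spanned a wide range. The deposited mean normalized count, over a set of libraries that is not stated, was divided by the length of each gene's merged exons. Hspa8, the constitutive HSP70 of the cytosol, had 13301 mean normalized counts per kb, and Hsp90ab1, the constitutive HSP90, had 9989. Hsp90aa1, the stress-inducible HSP90, had 2819 per kb, Bag3 776.0, Dnajb1 360.7 and Hsph1 209.0. Hspa1b had 176.6 mean normalized counts per kb, Hspa1a 99.8 and Hsf1 97.5. The constitutive forms thus stood at the top of this order, and the inducible HSP70 pair stood next to Hsf1 at its end. The places of Hspa1a and Hspa1b depend on how reads that match both genes were counted, which the sources used here do not state. The place of Hsf1 depends on the length used. Merged exons cover 7099 bases for Hsf1 and 7266 for Hsph1, against 2104 and 3802 in their longest protein-coding transcripts. Levels in each group are not known here, so no spread can be given for them.

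Hsf1 (ENSMUSG00000022556.9, chromosome 15, 76477422 to 76501913, plus strand of GRCm38) encodes the factor that drives the heat shock response. Its log2 fold change in the authors' deposited table was -0.0034 (SE 0.059, adjusted p = 0.967) at LPS 3 h and -0.11 (SE 0.064, adjusted p = 0.164) in unstimulated cells. The 95% interval ran from -0.12 to 0.11 at LPS 3 h and from -0.24 to 0.014 in unstimulated cells. Changes of the Hsf1 transcript beyond 0.25 on the log2 scale lay outside both intervals, and the activity of HSF1 protein was not measured. Hsf2, a related factor, rose at LPS 3 h by 0.36 (SE 0.071, adjusted p = 2.34e-06) and fell by 0.22 (SE 0.080, adjusted p = 0.0180) in unstimulated cells in the authors' deposited table. Its effect was higher at LPS 3 h than in unstimulated cells by 0.58 (SE 0.11, adjusted p = 1.05e-06). Hsf4 and Hsbp1, which encodes an HSF1-binding protein, were not called in either state.

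The inducible HSP70 pair Hspa1b and Hspa1a showed the widest rises among the 9 genes at LPS 3 h. Hspa1b (ENSMUSG00000090877.3, chromosome 17, 34956436 to 34959238, minus strand) rose by 1.08 on the log2 scale (SE 0.11, adjusted p = 1.47e-20) at LPS 3 h, or 2.12-fold with a 95% interval of 1.82 to 2.47, in the authors' deposited table. In unstimulated cells the same gene rose by 0.66 (SE 0.23, adjusted p = 0.0118), or 1.58-fold with an interval of 1.16 to 2.16, in the authors' deposited table. Its neighbour Hspa1a (ENSMUSG00000091971.3, chromosome 17, 34969190 to 34972156, minus strand) rose by 0.64 (SE 0.11, adjusted p = 3.77e-08), or 1.56-fold with an interval of 1.34 to 1.81, after 3 h of LPS in the authors' deposited table. In unstimulated cells Hspa1a had 0.15 (SE 0.21, adjusted p = 0.625), with an interval of -0.26 to 0.55, in the authors' deposited table. This interval includes 0 and overlaps that of Hspa1b in the same state, 0.22 to 1.11.

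Hspa1a and Hspa1b lie 9951 bases apart and share long stretches of transcript. Of the 2868 windows of 100 bases, the read length, in the Hspa1a transcript, 47.1% occur letter for letter in Hspa1b, and 56.5% occur in some other gene of GENCODE M21. For Hspa1b the shares are 49.9% and 49.9%. Reads from such windows cannot be given to 1 gene by sequence alone, and the sources used here do not say how the authors counted them, so the split of the rise between both genes is uncertain. Paired reads reach past a single window, so these shares can overstate the ambiguity. An annotated gene on the opposite strand, Gm20481, covers 2225 bases of Hspa1a, and its level was not analysed here. Its transcripts hold 13.0% of the Hspa1a windows, and the 56.5% includes these. Windows were compared on both strands, and whether counting used strand is not stated.

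The sequences before both starts, from RefSeq on GRCm38.p6, show how alike the promoters are. Each run is the 250 bases before the start on the gene's own minus strand, at chr17:34959239-34959488 for Hspa1b and chr17:34972157-34972406 for Hspa1a, and capitals mark GAANNTTC, a pair of inverted heat shock element units.
Hspa1b: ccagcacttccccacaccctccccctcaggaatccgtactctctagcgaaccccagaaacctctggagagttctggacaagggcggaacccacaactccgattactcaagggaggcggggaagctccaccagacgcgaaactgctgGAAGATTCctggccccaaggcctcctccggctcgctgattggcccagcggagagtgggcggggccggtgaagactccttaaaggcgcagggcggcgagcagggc
Hspa1a: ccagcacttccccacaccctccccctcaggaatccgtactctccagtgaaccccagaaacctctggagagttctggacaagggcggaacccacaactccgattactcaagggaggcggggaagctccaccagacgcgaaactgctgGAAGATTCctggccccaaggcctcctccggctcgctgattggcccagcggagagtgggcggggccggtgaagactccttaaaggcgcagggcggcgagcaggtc
They differ at 3 of 250 bases, T44C, C47T and G249T, written as the Hspa1b base, the position from 1 at the first printed base, and the Hspa1a base. The capitals begin at position -104 in both, counted from 0 at the first transcribed base, and hold the same letters. GAANNTTC and TTCNNGAA each read the same on both strands, and can overlap in longer elements. Over all 32851 RefSeq promoter windows of 300 bases, 250 before and 50 after the start, 7.86% hold GAANNTTC and 15.1% hold either form. A match is a run of letters and says nothing of whether HSF1 binds.

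**Figure D2:**
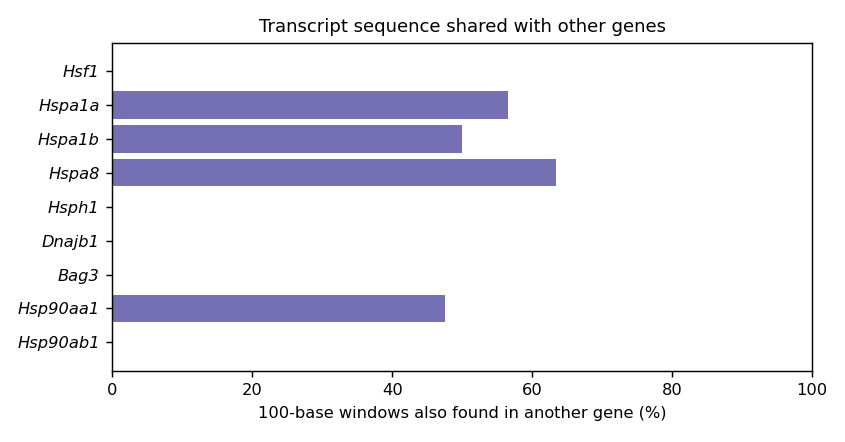
Share of 100-base windows of each gene's longest protein-coding transcript that occur without mismatch in a transcript of another gene in GENCODE M21. Hspa8, Hspa1a, Hspa1b and Hsp90aa1 share between 47.5% and 63.4% of their windows, and the other 5 genes share 0. Matches on either strand count, among them those of Hspa1a in the opposite-strand gene Gm20481.

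Both HSP70 genes were measured less precisely in unstimulated cells. Hspa1b had an SE of 0.11 at LPS 3 h and 0.23 in unstimulated cells in the authors' deposited table. The median SE of the 1157 genes with a mean level from 20% below to 25% above its own was 0.082 at LPS 3 h and 0.080 in unstimulated cells, so the SE of Hspa1b was 1.37 times and 2.84 times that median. In unstimulated cells 98.4% of those genes had a smaller SE. Hspa1a stood at 1.08 times the median SE of 991 such genes at LPS 3 h and at 2.12 times in unstimulated cells, where 97.1% were smaller. The ratios of the other 7 genes lay between 0.69 and 1.12 in both states. These genes were matched on the deposited mean, which is the same value in both states, so they need not match the level in unstimulated cells. Whether a lower count in that state or a spread between libraries goes with these SEs was not tested, as neither is known here.

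**Figure D3:**
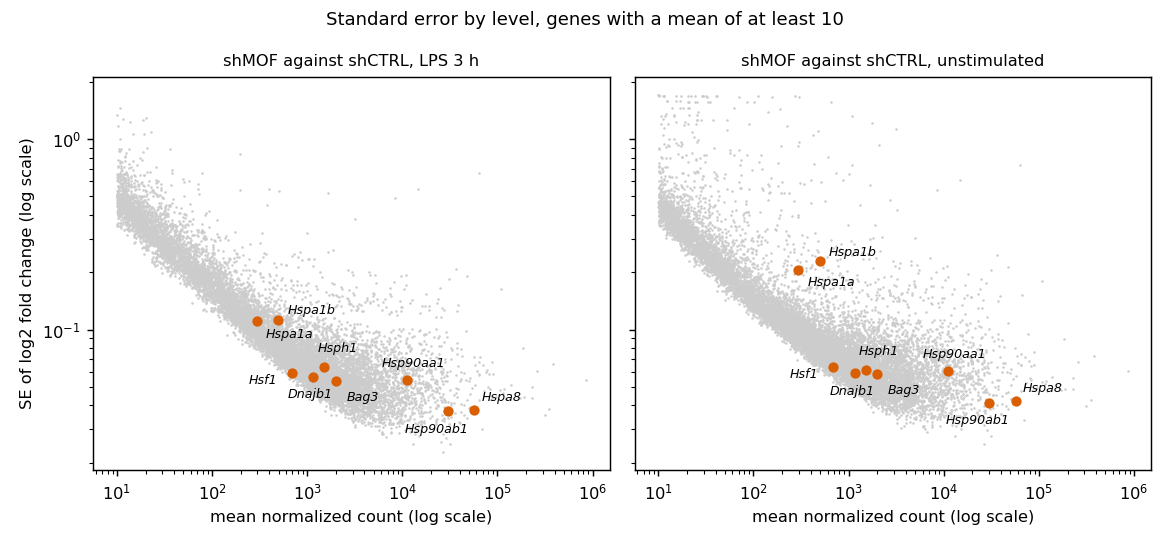
SE of the log2 fold change against the mean normalized count, both on log axes, for genes with a mean of at least 10 (grey) and the 9 chaperone genes (orange), at LPS 3 h (left) and in unstimulated cells (right). In unstimulated cells Hspa1a and Hspa1b lie above most genes of like deposited mean, with SEs of 0.21 and 0.23.

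Hspa8 (ENSMUSG00000015656.16, chromosome 9, 40800984 to 40810087, plus strand) encodes HSC70, which folds new proteins and strips clathrin from vesicles. It fell by 0.11 (SE 0.038, adjusted p = 0.0114) at LPS 3 h, to 0.928 of the control level, and had -0.064 (SE 0.042, adjusted p = 0.235) in unstimulated cells in the authors' deposited table. Both intervals lay within 0.25 of 0, so this abundant transcript moved little. Of its windows, 63.4% occur in other genes, with Gm15459 and Gm26825 each sharing 58.5% of them. Hspa8 had a mean normalized count of 57209, against 389.0 for Gm15459 and 6.31 for Gm26825, and neither of these was called in either state. The span of Hspa8 also holds 3 small nucleolar RNA genes on the same strand.

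The other members of the HSP70 family moved unevenly. Of 6 measured HSP70 and HSP110 relatives 2 were called higher and 0 lower at LPS 3 h, where 48.0% of all genes tested were called. In unstimulated cells 1 was called higher and 2 lower, where that share was 39.1%. Hspa2, best known from the testis, rose by 0.65 (SE 0.11, adjusted p = 3.37e-08) at LPS 3 h and by 0.72 (SE 0.10, adjusted p = 2.57e-11) in unstimulated cells in the authors' deposited table. Hspa14, whose product works at the ribosome, rose by 0.12 (SE 0.050, adjusted p = 0.0342) at LPS 3 h and had 0.010 (SE 0.049) in unstimulated cells in the authors' deposited table. Hspa4, which encodes an HSP110 exchange factor, had 0.0065 (SE 0.045) at LPS 3 h and fell by 0.16 (SE 0.049, adjusted p = 0.00326) in unstimulated cells in the authors' deposited table. Hspa13 had 0.091 (SE 0.051) at LPS 3 h and fell by 0.26 (SE 0.057, adjusted p = 2.36e-05) in unstimulated cells in the authors' deposited table. For Hspa4 and Hspa13 the difference between states passed the test, at 0.17 (SE 0.066, adjusted p = 0.0360) and 0.35 (SE 0.077, adjusted p = 3.89e-05).

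Hsph1 (ENSMUSG00000029657.15, chromosome 5, 149614287 to 149636376, minus strand) encodes HSP110, which exchanges the nucleotide of HSP70 and keeps aggregates soluble. It fell by 0.37 (SE 0.064, adjusted p = 5.50e-08) at LPS 3 h, to 0.776 of the control level with an interval of 0.711 to 0.846, in the authors' deposited table. In unstimulated cells it had -0.039 (SE 0.062, adjusted p = 0.668), with an interval of -0.16 to 0.082, in the authors' deposited table. Hsph1 thus moved opposite to Hspa1a and Hspa1b at LPS 3 h. Runs of 3 units, TTCNNGAA and GAANNTTC overlapping in either order, occur in 0.603% of all windows. Of the 5 members with a RefSeq window, only Hsph1 held such a run within it. The stretches around its matches are shown because the gene fell while others with the motif rose, each on the minus strand with the units in capitals, at chr5:149636351-149636380 and chr5:149636287-149636311.
Hsph1 before the start: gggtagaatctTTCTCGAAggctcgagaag
Hsph1 after the start: aatgctgcagaTTCTGGAAAGTTCt
The first match begins at position -33 of the RefSeq start, and the second, with 3 units, at position 36. Before and after refer to this RefSeq start. The GENCODE span of Hsph1 begins further upstream, at 149636376 on the minus strand, so both matches lie within that span. A second RefSeq start of Hsph1 covers the same matches.

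Dnajb1 and Bag3 encode partners of HSP70 and rose slightly at LPS 3 h. Dnajb1 (ENSMUSG00000005483.9, chromosome 8, 83608193 to 83612653, plus strand) encodes the J-domain protein HSP40, which hands clients to HSP70. It rose by 0.19 (SE 0.057, adjusted p = 0.00176) at LPS 3 h, or 1.14-fold, and had -0.026 (SE 0.059, adjusted p = 0.773) in unstimulated cells in the authors' deposited table. Bag3 (ENSMUSG00000030847.8, chromosome 7, 128523616 to 128546981, plus strand) encodes an exchange factor that links HSP70 clients to autophagy. It rose by 0.17 (SE 0.053, adjusted p = 0.00316) at LPS 3 h, or 1.13-fold, and had 0.020 (SE 0.058, adjusted p = 0.831) in unstimulated cells in the authors' deposited table. Both rises were small, and both intervals in unstimulated cells lay within 0.25 of 0. The Bag3 window holds GAANNTTC at position 42, and the Dnajb1 windows hold neither form. The Bag3 match ends at the last base of its window, so a further unit after it could not be seen. The Bag3 site is shown on the plus strand, at chr7:128523614-128523632.
Bag3: ggatgggaccaGAAGTTTC
A short gene of uncertain status on the same strand, RP23-178C20.6 in the tables, overlaps Bag3 by 612 bases and had a mean normalized count of 5.17.

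Other J-domain genes moved both ways. Of 14 measured, 7 were called higher and 5 lower at LPS 3 h, with a median of 0.082. In unstimulated cells 3 were called higher and 7 lower, with a median of -0.15. Over all genes tested 48.0% were called at LPS 3 h and 39.1% in unstimulated cells, with medians of 0.027 and 0.031. The counts of the list were not tested against these shares. Dnajc21, which encodes a factor of ribosome assembly, fell by 1.41 (SE 0.095, adjusted p = 4.71e-48) at LPS 3 h and by 1.69 (SE 0.11, adjusted p = 3.62e-51) in unstimulated cells in the authors' deposited table. Dnajc9, a histone chaperone gene, fell by 0.69 (SE 0.10, adjusted p = 4.05e-11) at LPS 3 h and by 0.85 (SE 0.091, adjusted p = 4.45e-19) in unstimulated cells in the authors' deposited table. These are J-domain proteins of ribosome or chromatin assembly rather than of the stress response. Dnajb5 rose by 0.93 (SE 0.095, adjusted p = 2.32e-21) at LPS 3 h and by 0.43 (SE 0.11, adjusted p = 4.28e-04) in unstimulated cells in the authors' deposited table. Dnaja2, which encodes a partner of HSC70, rose by 0.17 (SE 0.053, adjusted p = 0.00378) at LPS 3 h and fell by 0.54 (SE 0.060, adjusted p = 1.32e-17) in unstimulated cells in the authors' deposited table. Dnaja1 rose by 0.33 (SE 0.055, adjusted p = 7.89e-09) at LPS 3 h and had -0.10 (SE 0.062) in unstimulated cells in the authors' deposited table. Dnajc5, whose product acts on vesicles, fell by 0.42 (SE 0.039, adjusted p = 6.16e-25) at LPS 3 h and by 0.22 (SE 0.040, adjusted p = 5.59e-07) in unstimulated cells in the authors' deposited table.

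HSP70 co-chaperones and BAG genes had 3 of 10 called higher and 2 lower at LPS 3 h, and the same counts in unstimulated cells. The shares of all genes called were 48.0% at LPS 3 h and 39.1% in unstimulated cells. Bag4 fell by 0.40 (SE 0.093, adjusted p = 7.37e-05) at LPS 3 h and by 0.29 (SE 0.081, adjusted p = 0.00186) in unstimulated cells in the authors' deposited table. Sil1, an exchange factor of the endoplasmic reticulum, rose by 0.31 (SE 0.077, adjusted p = 2.69e-04) at LPS 3 h and by 0.34 (SE 0.079, adjusted p = 9.78e-05) in unstimulated cells in the authors' deposited table. Bag6 rose by 0.15 in both states (SE 0.049 and 0.053), and Tomm34 by 0.13 (SE 0.053) at LPS 3 h and 0.25 (SE 0.053) in unstimulated cells, in the authors' deposited table. Small heat shock protein genes were scarce, with 4 of 9 measured and mean normalized counts of 5.11 to 101.7. Hspb6 was the one called, lower by 0.64 (SE 0.14, adjusted p = 1.50e-05) at LPS 3 h and by 0.60 (SE 0.13, adjusted p = 1.46e-05) in unstimulated cells in the authors' deposited table. Hspb1, the small heat shock protein HSP27 in human, had 0.38 (SE 0.22) at LPS 3 h and -0.26 (SE 0.31) in unstimulated cells in the authors' deposited table. Cryab and Hspb7 had no call in either state, and Hspb7 has no adjusted p at LPS 3 h.

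The HSP90 genes showed their changes in unstimulated cells, in opposite directions. Hsp90aa1 (ENSMUSG00000021270.13, chromosome 12, 110690605 to 110702728, minus strand) had -0.049 (SE 0.055, adjusted p = 0.482) at LPS 3 h and fell by 0.44 (SE 0.061, adjusted p = 5.21e-12) in unstimulated cells, to 0.736 of the control level with an interval of 0.677 to 0.799, in the authors' deposited table. Hsp90ab1 (ENSMUSG00000023944.14, chromosome 17, 45567775 to 45573271, minus strand) had 0.031 (SE 0.037, adjusted p = 0.528) at LPS 3 h and rose by 0.16 (SE 0.041, adjusted p = 5.38e-04) in unstimulated cells, or 1.12-fold with an interval of 1.06 to 1.18, in the authors' deposited table. At LPS 3 h both intervals lay within 0.25 of 0. Hsp90aa1 shares 47.5% of its windows with other genes, led by Gm12346 at 39.6%, while Hsp90ab1 shares none. Gm12346 had a mean normalized count of 110.2, against 11081 for Hsp90aa1, and -0.14 (SE 0.17) at LPS 3 h and -0.31 (SE 0.18, adjusted p = 0.176) in unstimulated cells in the authors' deposited table. Gm5844, which shares 20.4% of the Hsp90aa1 windows, fell by 0.64 (SE 0.26, adjusted p = 0.0300) at LPS 3 h and had -0.26 (SE 0.27) in unstimulated cells in the authors' deposited table.

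Of 18 HSP90 co-chaperone genes 1 was called higher and 6 lower in unstimulated cells, with a median of -0.14. Over all genes 21.3% were called higher and 17.8% lower in that state, and the balance of directions in the list was not tested. At LPS 3 h 5 of the 17 genes tested were called higher and 6 lower, with a median of -0.044. Over all genes tested at LPS 3 h 28.1% were called higher and 20.0% lower, and the list was not tested against these shares. Ahsa1, which encodes the activator of the HSP90 ATPase, fell by 0.36 (SE 0.059, adjusted p = 4.30e-09) at LPS 3 h and by 0.59 (SE 0.064, adjusted p = 5.13e-19) in unstimulated cells in the authors' deposited table. Stip1, which encodes HOP, the bridge between HSP70 and HSP90, rose by 0.28 (SE 0.040, adjusted p = 1.90e-11) at LPS 3 h and fell by 0.33 (SE 0.046, adjusted p = 1.88e-11) in unstimulated cells in the authors' deposited table. Fkbp5, a steroid receptor co-chaperone gene that glucocorticoids induce, rose by 0.32 (SE 0.091, adjusted p = 0.00146) at LPS 3 h and fell by 1.03 (SE 0.10, adjusted p = 2.85e-22) in unstimulated cells in the authors' deposited table. Ptges3, which encodes p23, had 0.10 (SE 0.047, adjusted p = 0.0578) at LPS 3 h and fell by 0.31 (SE 0.053, adjusted p = 3.34e-08) in unstimulated cells in the authors' deposited table. Cdc37l1, a relative of the kinase co-chaperone gene Cdc37, rose by 0.33 (SE 0.073, adjusted p = 2.79e-05) at LPS 3 h and by 0.29 (SE 0.075, adjusted p = 6.29e-04) in unstimulated cells in the authors' deposited table.

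Genes of the TRiC chaperonin, which folds actin and tubulin, and of prefoldin, which feeds it, were called higher in 1 of 14 cases and lower in 0 at LPS 3 h. In that state 48.0% of all genes tested were called, and the count was not tested against this share. In unstimulated cells 0 were called higher and 5 lower, with a median of -0.10, where 39.1% of all genes were called in either direction. The balance of directions was not tested here either. The prefoldin gene Vbp1 had -0.086 (SE 0.063) at LPS 3 h and fell by 0.40 (SE 0.066, adjusted p = 2.08e-08) in unstimulated cells in the authors' deposited table. The chaperonin gene Cct6a had -0.057 (SE 0.059) at LPS 3 h and fell by 0.33 (SE 0.066, adjusted p = 4.24e-06) in unstimulated cells in the authors' deposited table. Pfdn5 rose by 0.19 (SE 0.054, adjusted p = 0.00180) at LPS 3 h, and had 0.089 (SE 0.059) in unstimulated cells, in the authors' deposited table. Cct7 had -0.074 (SE 0.053) at LPS 3 h and fell by 0.17 (SE 0.059, adjusted p = 0.0131) in unstimulated cells in the authors' deposited table.

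Of 8 relatives in the endoplasmic reticulum and mitochondria, 1 was called higher and 2 lower at LPS 3 h, beside 48.0% of all genes called. In unstimulated cells 2 were called higher and 4 lower, beside 39.1% of all genes called. Hspa5, which encodes BiP, rose by 0.19 (SE 0.028, adjusted p = 9.62e-11) at LPS 3 h and by 0.18 (SE 0.032, adjusted p = 1.55e-07) in unstimulated cells in the authors' deposited table. Hyou1 fell by 0.42 (SE 0.055, adjusted p = 3.12e-13) at LPS 3 h and by 0.17 (SE 0.059, adjusted p = 0.0140) in unstimulated cells in the authors' deposited table. Like Hsph1, Hyou1 belongs to the HSP110 group, though in the endoplasmic reticulum. Trap1, the mitochondrial HSP90, fell by 0.20 (SE 0.048, adjusted p = 1.55e-04) at LPS 3 h and by 0.19 (SE 0.051, adjusted p = 0.00104) in unstimulated cells in the authors' deposited table. Hsp90b1, the HSP90 of the endoplasmic reticulum, had -0.019 (SE 0.033) at LPS 3 h and rose by 0.14 (SE 0.036, adjusted p = 3.79e-04) in unstimulated cells in the authors' deposited table. A list of 10 further HSF1 targets, which shares 7 genes with the lists above, had 4 called higher and 2 lower at LPS 3 h, and 1 higher and 3 lower in unstimulated cells. Of these, the autophagy receptor gene Sqstm1 rose by 0.61 (SE 0.061, adjusted p = 3.49e-22) at LPS 3 h and had -0.0020 (SE 0.068) in unstimulated cells in the authors' deposited table. Chordc1, an HSP90 partner gene, fell by 0.16 (SE 0.057, adjusted p = 0.0145) at LPS 3 h and by 0.28 (SE 0.061, adjusted p = 1.93e-05) in unstimulated cells in the authors' deposited table.

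**Figure D4:**
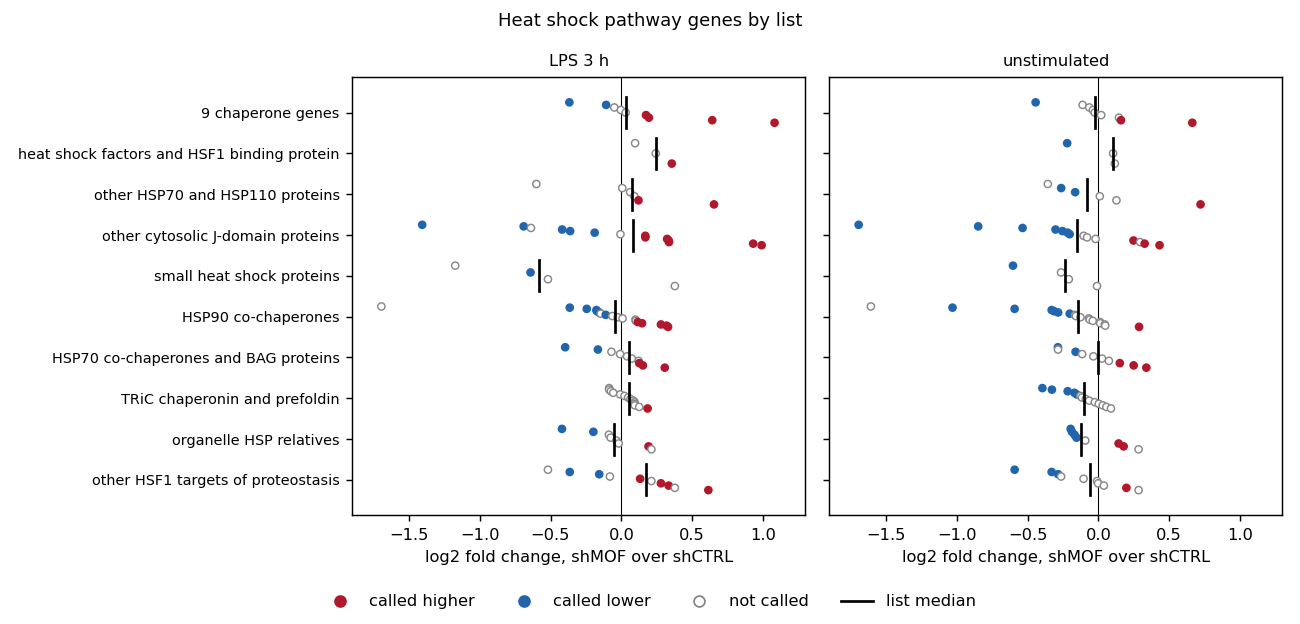
Log2 fold change of shMOF over shCTRL for the 9 chaperone genes and 9 lists of related genes at LPS 3 h (left) and in unstimulated cells (right); each point is a gene, filled where the adjusted p was under 0.05, and black bars are list medians. HSP90 co-chaperones and TRiC or prefoldin genes sit mostly left of 0 in unstimulated cells, with medians of -0.14 and -0.10. Every other list but the heat shock factors, at 0.10, also had a median below 0 there. Among these were J-domain genes at -0.15, organelle relatives at -0.12 and small heat shock proteins at -0.24.

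Across the 80 measured genes of these lists, 22 of 78 tested were called higher and 16 lower at LPS 3 h, and 11 of 80 higher and 28 lower in unstimulated cells. That is 48.7% called at LPS 3 h and 48.8% in unstimulated cells, beside the 48.0% and 39.1% over all genes. The median was 0.031 at LPS 3 h and -0.098 in unstimulated cells, beside 0.027 and 0.031 over all genes tested.

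The knockdown effect itself differed between the LPS states for 3 of the 9 genes. The test sets the effect at LPS 3 h against that in unstimulated cells, and called 30.6% of the 12994 genes whose mean was 10 or more, 18.2% higher and 12.4% lower. Hsp90aa1 had a difference of 0.39 (SE 0.082, adjusted p = 1.66e-05), its fall in unstimulated cells being near 0 at LPS 3 h. Hsph1 had a difference of -0.33 (SE 0.089, adjusted p = 0.00138), its fall being at LPS 3 h. Dnajb1 had a difference of 0.22 (SE 0.082, adjusted p = 0.0264). Hspa1a had the highest difference, 0.50 (SE 0.23, adjusted p = 0.0925), and Hspa1b had 0.42 (SE 0.25, adjusted p = 0.214), neither past the threshold. The intervals of Hspa1a and Hspa1b, 0.040 to 0.95 and -0.080 to 0.92, span values from near 0 to above those of the called genes. Bag3 had 0.15 (SE 0.079, adjusted p = 0.129), Hsf1 0.11 (SE 0.087, adjusted p = 0.375), Hspa8 -0.044 (SE 0.057, adjusted p = 0.610) and Hsp90ab1 -0.13 (SE 0.056, adjusted p = 0.0647). Counting differences up to 0.25 as null, or under the empirical null, 0 of the 9 were called, where 8.10% and 2.58% of all genes tested were. In each of these versions of the normal test 1 of the 9 had an unadjusted p under 0.05.

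Among the related genes tested for this difference, 19 of 78 were called higher and 3 lower, or 28.2% in all, which is near the 30.6% over all genes. Over all genes 18.2% were called higher and 12.4% lower, and the counts of single lists below were not tested against these shares. Of HSP90 co-chaperones 4 of 17 were called higher and 0 lower, led by Fkbp5 at 1.35 (SE 0.14, adjusted p = 1.10e-20), Stip1 at 0.61 (SE 0.061, adjusted p = 3.30e-21) and Ptges3 at 0.41 (SE 0.071, adjusted p = 8.31e-08). Of J-domain genes 6 of 14 were called higher and 1 lower, with Dnaja2 at 0.70 (SE 0.080, adjusted p = 1.09e-16), Dnaja1 at 0.44 (SE 0.083, adjusted p = 1.92e-06) and Dnajb6 at 0.25 (SE 0.063, adjusted p = 5.88e-04). Of TRiC and prefoldin genes 4 of 14 were called higher and 0 lower, with Vbp1 at 0.31 (SE 0.091, adjusted p = 0.00370), Tcp1 at 0.25 (SE 0.072, adjusted p = 0.00329) and Cct6a at 0.27 (SE 0.088, adjusted p = 0.00998). Bag1 was the 1 of 10 HSP70 co-chaperone genes called, at 0.24 (SE 0.065, adjusted p = 0.00178). Sqstm1 had a difference of 0.62 (SE 0.092, adjusted p = 6.18e-10). The lower calls included Hyou1 at -0.25 (SE 0.081, adjusted p = 0.00909) and Hsp90b1 at -0.16 (SE 0.049, adjusted p = 0.00528). Of the 10 proliferation markers 7 were also called higher and 0 lower in this difference, and their part in these values was not tested.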

How the data were processed

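RNA of 12 macrophage libraries, 3 in each of 4 groups, was sequenced from stranded paired-end mRNA libraries with reads of 100 bp, per the labels' protocol. DESeq2 (version not stated) and mm10 come from the submitters' processing notes. The aligner, counter, annotation release and strand setting are not stated in the sources used here. Per the file headers, the authors deposited for each LPS state each gene's mean normalized count (a signal, identical in both tables, over libraries that are not stated), a log2 fold change with its SE, and a Wald statistic, which is a score. The deposited p-values equal two-sided normal p-values of that score to within 2.83e-15, and the adjusted p a Benjamini-Hochberg adjustment to within 1.36e-15. The LPS table gives no adjusted p for 277 genes. Library totals are unknown, so precision is known through the SE, which for the 9 genes lay between 0.037 and 0.11 at LPS 3 h and between 0.041 and 0.23 in unstimulated cells.

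Calls use the authors' DESeq2 Wald test at an adjusted p of 0.05, with 95% normal intervals. To compare states, the log2 fold change in unstimulated cells was subtracted from that at LPS 3 h, divided by the combined SE (squares added), and given a normal p, two-sided, adjusted by Benjamini-Hochberg over genes whose mean was 10 or more. This takes both errors as uncorrelated. The test was also run on simulated effects, but these were drawn with uncorrelated errors and so cannot check that assumption. Python 3.11.15, scipy 1.17.1 and pandas 2.3.3 were used. Lists are described by counts and medians. The 9 genes, the lists, the tests and the alternatives were chosen with earlier results of these data known. Named are the 9 genes, Kat8, up to 3 called genes with the smallest p of each list in each comparison, every gene of a list with at most 4 measured, and genes overlapping the 9. Genes that share transcript windows with the 9 were added by sequence, and the collagen genes were chosen after their values were seen. Coordinates, exon lengths and transcripts are from GENCODE M21 (GRCm38, which is mm10), promoters from RefSeq on GRCm38.p6, found for 5 of the 9 genes, Hspa1a, Hspa1b, Hsph1, Dnajb1 and Bag3. Transcript windows were compared on both strands.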

Additional observations from a re-analysis of the deposited data

Results flagged for a closer look

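For 3 of the 9 genes the effect of the knockdown differed between LPS 3 h and unstimulated cells by a test of the difference itself. That test called 30.6% of 12994 genes, so 3 of 9 stands near the share over all genes. The difference of the log2 fold changes was 0.39 for Hsp90aa1, 0.22 for Dnajb1 and -0.33 for Hsph1. For Hsp90aa1 the effect was -0.049 at LPS 3 h and -0.44 in unstimulated cells in the authors' deposited table. Dnajb1 had 0.19 at LPS 3 h and -0.026 in unstimulated cells, and Hsph1 had -0.37 and -0.039, in the authors' deposited table.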

How the results depend on the processing

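Centring the fold changes on their median, adjusting over every gene, and dropping genes under a mean of 50 each left the counts of 6 genes called at LPS 3 h and 3 in unstimulated cells. Over all genes these settings called 47.7%, 47.0% and 59.2% at LPS 3 h, and 38.2%, 39.1% and 50.1% in unstimulated cells. With a threshold of 0.01 the 9 genes had 5 and 2 calls, Hspa8 and Hspa1b being lost. For the difference they had 2, Dnajb1 being lost (adjusted p = 0.0264). At that threshold 39.4% of all genes were called at LPS 3 h, 30.5% in unstimulated cells and 21.7% for the difference. With changes up to 0.25 counted as null, 2 genes were called at LPS 3 h, Hspa1a and Hspa1b, 1 in unstimulated cells, Hsp90aa1, and 0 for the difference, with 3, 2 and 1 at an unadjusted p under 0.05. An empirical null was centred on the median statistic and scaled to its spread. That spread was 3.46 at LPS 3 h, 2.80 in unstimulated cells and 2.25 for the difference. It may hold effects of the knockdown itself. The empirical null called 0 of the 9 in each comparison, with 1, 1 and 1 at an unadjusted p under 0.05. Over all genes it called 321 higher and 165 lower at LPS 3 h, against 3924 and 2794 as deposited, 123 and 445 in unstimulated cells, against 3037 and 2538, and 270 and 65 for the difference, against 2363 and 1614. The null of 0.25 called 1426 and 1021 at LPS 3 h, 595 and 897 in unstimulated cells, and 743 and 310 for the difference. That is 17.5%, 10.5% and 8.10% of all genes tested, against 3.47%, 3.98% and 2.58% under the empirical null. Under the empirical null 66.0% of all calls were higher at LPS 3 h, against 58.4% as deposited, and 21.7% in unstimulated cells, against 54.5%. For the difference this null gave 80.6%, and the null of 0.25 gave 70.6%, against 59.4%. The null of 0.25 gave 39.9% in unstimulated cells.

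The difference called 5 of the 9 genes with an error correlation of 0.3, adding Hspa1a and Hsp90ab1. It called 2 with -0.3, losing Dnajb1 at an adjusted p = 0.0677, and 4 after centring, adding Hsp90ab1 at an adjusted p = 0.0476. Over all genes these settings called 39.4%, 24.4% and 30.4%. Without Hspa1a and Hspa1b 4 genes at LPS 3 h, 2 in unstimulated cells and 3 for the difference were called. No gene of the 9 changed direction in a call. Of 54 list medians recomputed, 4 moved by more than the median SE of the list's genes. All were in the small heat shock proteins and the HSP70 relatives, with genes of a mean under 50 left out. For small heat shock proteins the median was then -0.13 at LPS 3 h, against -0.58, and 0.30 for the difference, against -0.27, a change of sign. For HSP70 relatives it was 0.010 in unstimulated cells, against -0.077, also a change of sign, and 0.11 for the difference, against 0.023. No paired analysis was possible because the tables hold no values per library, and leaving out a replicate was not run for the same reason.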
